A study of Homo sapiens with 4 samples.

Results

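The genes described are 10 genes of metal handling, named by a fixed set of symbols and found as 10 rows among the 58735 genes of each table. They are 6 metallothionein genes (MT2A, MT1X, MT1E, MT1F, MT1G and MT1M), the zinc-sensing transcription factor MTF1, and 3 zinc transporter genes (SLC30A1, SLC39A10 and SLC39A14). RNA was sequenced from 769-P, an established human renal clear cell carcinoma line that was stably transfected with an inducible short hairpin RNA (shRNA) construct against USP35, a ubiquitin-specific protease, and kept in puromycin. The 2 control libraries came from untreated cells carrying this construct, and the 2 doxycycline libraries (named sh2 in the labels) from the same cells treated with doxycycline (1 µg/ml, 4 days), the inducer of the hairpin. All 4 libraries therefore carry the construct, and doxycycline itself and the hairpin cannot be told apart. The labels do not say whether replicates were separate cultures, so the p-values rest on a spread that may be purely technical.

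Metallothioneins are small cysteine-rich proteins that bind zinc, copper and cadmium ions and buffer free zinc in the cytosol. MTF1 binds zinc through its own zinc fingers and then activates metallothionein genes and SLC30A1 through metal response elements in their promoters. SLC30 proteins (ZnT) lower cytosolic zinc by export or by loading organelles, and SLC39 proteins (ZIP) raise it by import. In the kidney the metallothioneins are known for binding cadmium taken up by the proximal tubule, the segment from which clear cell carcinoma is thought to arise.

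The results below turn on MT2A, MT1X and SLC30A1, so the 250 bases before their start sites are shown, with matches to the core of the metal response element in capitals. The core was searched as TGCACNC and TGCGCNC on both strands (N is any base) in RefSeq promoter windows on GRCh38.p14, which held 5 of the 10 members. Each line runs 5′ to 3′ on the strand of the gene and ends at the base before the start site.
MT2A (chr16:56608334-56608583, plus strand): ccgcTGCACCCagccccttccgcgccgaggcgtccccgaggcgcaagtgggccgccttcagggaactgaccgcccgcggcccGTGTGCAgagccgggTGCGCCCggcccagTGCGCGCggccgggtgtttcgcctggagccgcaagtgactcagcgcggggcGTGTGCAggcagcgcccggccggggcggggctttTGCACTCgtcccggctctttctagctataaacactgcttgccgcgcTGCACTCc
MT1X (chr16:56682220-56682469, plus strand): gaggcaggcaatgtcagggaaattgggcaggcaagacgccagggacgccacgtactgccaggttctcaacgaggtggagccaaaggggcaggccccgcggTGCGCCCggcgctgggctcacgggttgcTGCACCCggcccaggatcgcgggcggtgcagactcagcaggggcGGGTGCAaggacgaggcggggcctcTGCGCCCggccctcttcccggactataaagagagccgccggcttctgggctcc
SLC30A1 (chr1:211579162-211579411, minus strand): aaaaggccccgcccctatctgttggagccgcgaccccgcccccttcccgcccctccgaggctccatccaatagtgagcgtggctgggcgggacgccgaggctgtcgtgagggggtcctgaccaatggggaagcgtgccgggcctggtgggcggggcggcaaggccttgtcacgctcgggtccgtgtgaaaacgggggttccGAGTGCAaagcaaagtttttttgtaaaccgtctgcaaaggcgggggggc

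The MT2A window held 7 matches and the MT1X window 4. Of all 35114 windows of the same length, 24.8% held at least 1 match, 0.370% held at least 4 and 0.0313% held at least 7. These shares were not matched for base composition. The bases G and C made up 73.2% of the MT2A window, 70.0% for MT1X, 66.4% for SLC30A1 and 70.0% for MTF1. The SLC30A1 window held 1 match, and the windows of MTF1 and of both SLC39A10 start sites held none. Among other metallothionein genes, the window of MT1H held 8 matches and those of MT1B and MT4 held 3 each. MT1H, MT1B and MT4 had 0 reads in every library. The letters TATAAA lay within the last 50 bases before the start in MT2A, MT1X, MT1B and MT4, and in 2.63% of all windows. A match is a description of the letters and was not tested as a binding site. The RefSeq start of SLC30A1 lies outside the gene as placed by the deposited tables (GRCh38 chromosome 1, 211571568 to 211578742). In contrast, the whole MT2A window and the end of the MT1X window lie inside their genes as so placed. Those genes begin at 56608199 and 56682424 on chromosome 16, so the windows are upstream of the RefSeq start only.

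Levels are FPKM, fragments per kilobase of the gene length in the tables with a scaling to library size by the authors, and read numbers were recovered from them. The libraries held 16319640 and 17244546 reads in control replicates 1 and 2, and 17481827 and 18764546 reads in doxycycline replicates 1 and 2. The mitochondrial genome supplied 8.21% and 8.50% of control reads. Its share was 7.44% for doxycycline replicate 1 and 14.6% for replicate 2, so that the last library stood apart by this share. Ribosomal RNA made up 16.3% and 16.4% of mitochondrial reads in control replicates 1 and 2. It made up 28.7% and 23.2% in doxycycline replicates 1 and 2, so by this measure replicate 1 was the farther from the controls. Of 8 markers of renal carcinoma cells, 7 averaged 1 FPKM or more, with the kidney lineage factor PAX8 between 38.5 and 53.9 FPKM. The exception was CA9, a hypoxia-driven antigen of clear cell carcinoma, at no more than 1 read in any library. None of 13 fibroblast, endothelial and leukocyte markers reached a mean of 1 FPKM, and LUM, PECAM1, CDH5, KDR, CD3E and LYZ were at 0 reads in every library. USP35, the target of the hairpin, was at 3.31 and 4.19 FPKM in untreated cells and at 2.11 and 2.54 FPKM after doxycycline, which did not pass the test (limma adjusted p = 0.256).

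Each gene that averaged 1 FPKM or more across the 4 libraries was tested for doxycycline against control with limma on log2(FPKM + 1), with p-values adjusted over all 12029 such genes. Of the 10 members, 6 met this minimum (MT2A, MT1X, MTF1, SLC30A1, SLC39A10 and SLC39A14). None of these 6 had an adjusted p under 0.05, and 0% of all genes tested did, the lowest adjusted p of any gene being 0.0573. At an unadjusted p under 0.05, MTF1 was higher (1 of 6 members), against 6.47% of all genes higher and 11.9% lower. limma-voom on recovered reads also called 0 of the 6. Over all genes it called 0% with library totals and 121 genes (1.01%) with median-of-ratios library sizes. The median log2 difference was 0.24 over the 6 members and -0.03 over all genes tested.

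**Figure D1:**
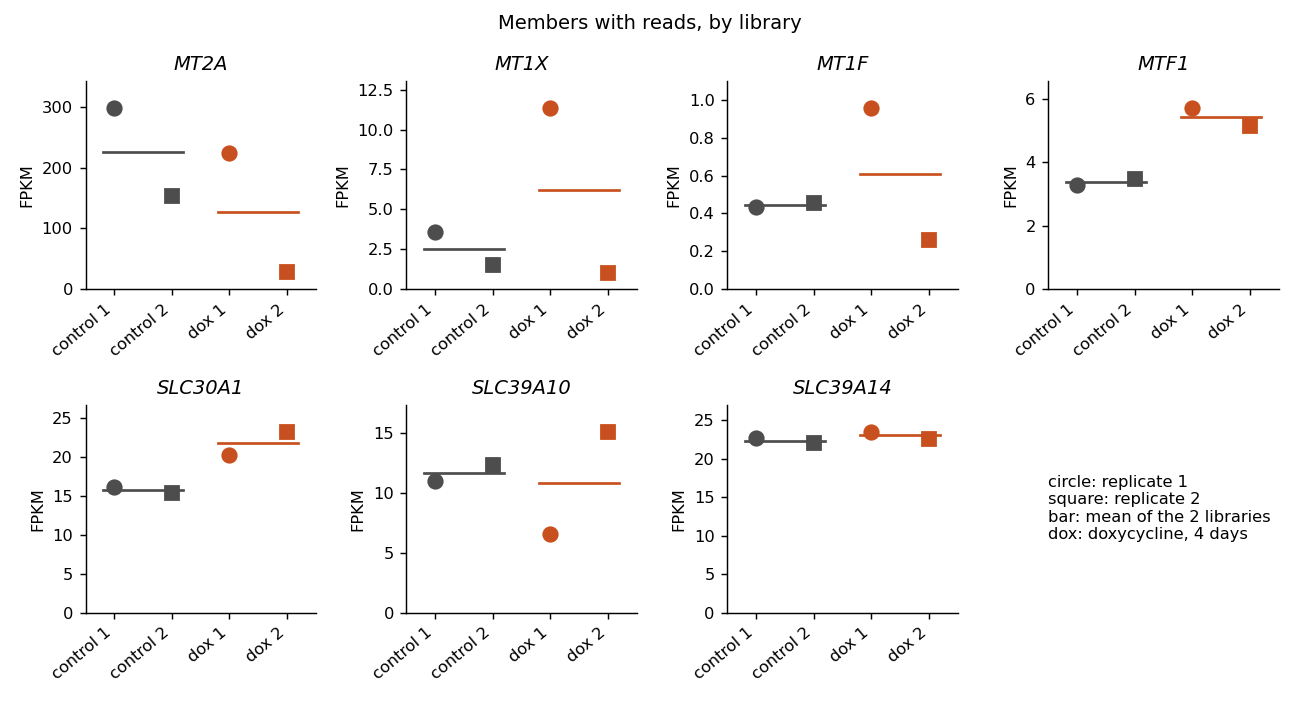
FPKM of the 7 members with reads in each of the 4 libraries, on linear axes from 0. Grey is control, orange is doxycycline, circles are replicate 1, squares are replicate 2, and bars are means of the 2 libraries. MT2A is lowest, at 28.3 FPKM, in doxycycline replicate 2, while MTF1 and SLC30A1 lie above both controls in both doxycycline libraries.

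MT2A, a metallothionein gene active in most human tissues, supplied nearly all metallothionein signal. It lies on chromosome 16 (ENSG00000125148, GRCh38, 56608199 to 56609497, plus strand). It stood at 299 FPKM in control replicate 1, 153 FPKM in control replicate 2, 225 FPKM in doxycycline replicate 1 and 28.3 FPKM in doxycycline replicate 2. These values rest on 6156, 3460, 5497 and 673 reads. Doxycycline replicate 1 thus lay between the controls, and doxycycline replicate 2 lay below all others, so the groups overlapped. MT2A ranked 86th, 166th and 103rd among genes by FPKM in control replicate 1, control replicate 2 and doxycycline replicate 1, and 1379th in doxycycline replicate 2.

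The group means of MT2A were 226 ± 103 FPKM in untreated cells and 127 ± 139 FPKM after doxycycline (SD, n = 2 each). The log2 difference was -1.40 (standard error 0.92), which did not pass (limma adjusted p = 0.451). This value turned on which doxycycline library was entered. Without doxycycline replicate 1 the log2 difference was -2.87, and without doxycycline replicate 2 it was 0.074. Each of these fits kept 1 doxycycline library, so the spread of that group could not be measured and no p-value is given. Doxycycline replicate 2 was also the library with the high mitochondrial share. With mitochondrially encoded genes removed and the libraries rescaled, the log2 difference over all 4 libraries was -1.36. The factors were 1.09 for each control and 1.08 and 1.17 for doxycycline replicates 1 and 2. Such a rescaling changes only the scale of a library, and a link between the mitochondrial share and MT2A was not tested. In RNA from whole cultures, fewer cells expressing a gene and less of its RNA per cell cannot be told apart.

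The untreated libraries were themselves apart for MT2A. Control replicate 1 held 1.95 times the FPKM of control replicate 2, and the ratio of replicate 2 to replicate 1 was 0.512, with an exact (Clopper-Pearson based) 95% interval from 0.491 to 0.534 on the read numbers. Such intervals and the limits for 0 reads cover only counting error, because without molecular identifiers several reads can stem from 1 molecule. The interval compares 2 libraries rather than conditions. Of the 12029 genes tested, 148 (1.23%) had a gap between the controls at least as large in either direction on the log2(FPKM + 1) scale. Among the 6932 genes that averaged 5 FPKM or more, 16 (0.231%) did. Across the controls as a whole, 4.05% of genes differed by at least 1.5-fold on FPKM + 1.

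MT2A differed more between the doxycycline libraries than between the controls. Doxycycline replicate 1 held 7.96 times the FPKM of doxycycline replicate 2, with a ratio of replicate 2 to replicate 1 of 0.126 (exact 95% interval 0.116 to 0.136, counting error only). On the log2(FPKM + 1) scale, 29 genes (0.241%) had a gap at least as large in either direction. Of all genes tested, 22.5% differed by at least 1.5-fold on FPKM + 1 between these libraries. Doxycycline replicate 2 stood 10.6-fold below control replicate 1 and 5.41-fold below control replicate 2. Doxycycline replicate 1 stood at 0.754 and 1.47 times the same controls.

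**Figure D2:**
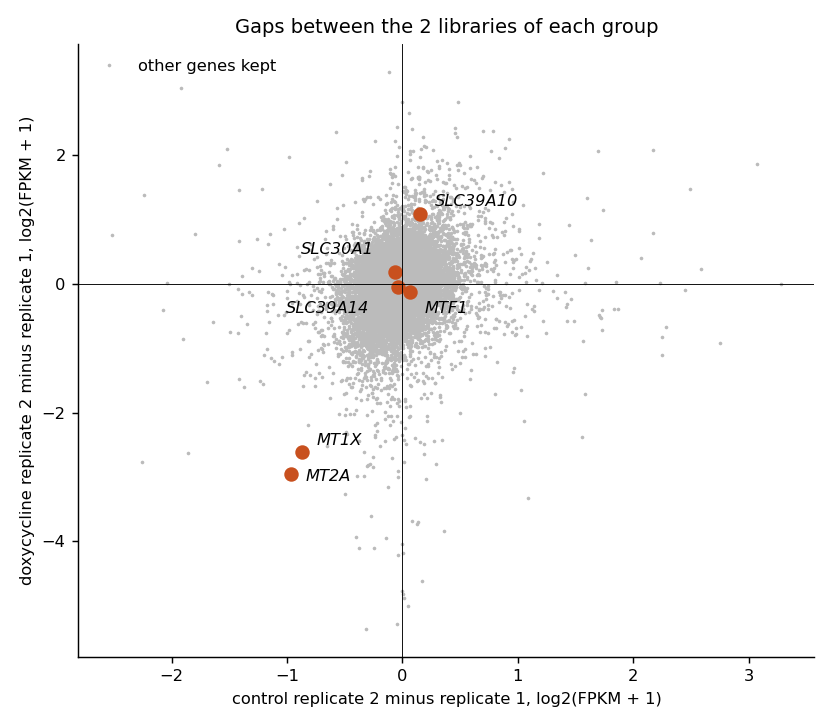
Difference in log2(FPKM + 1) of replicate 2 minus replicate 1, between the controls (horizontal axis) and between the doxycycline libraries (vertical axis), with 1 grey point for each of the 12029 genes and the 6 members tested in orange. MT2A and MT1X lie far to the lower left, SLC39A10 lies above the centre, and MTF1, SLC30A1 and SLC39A14 lie near it.

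MT1X, the metallothionein gene next in level, had the same sign of gap in both groups. It lies on chromosome 16 (ENSG00000187193, GRCh38, 56682424 to 56684196, plus strand), downstream of MT2A in the metallothionein cluster. It stood at 3.56 and 1.49 FPKM in control replicates 1 and 2, and at 11.3 and 1.02 FPKM in doxycycline replicates 1 and 2. These values rest on 100, 46, 378 and 33 reads. The highest and the lowest value were both doxycycline libraries, so the groups overlapped. The means were 2.52 ± 1.46 and 6.18 ± 7.30 FPKM (SD, n = 2 each), and the log2 difference was 0.57 (standard error 0.81, limma adjusted p = 0.734).

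As for MT2A, the difference of MT1X followed the libraries entered. It was -0.74 without doxycycline replicate 1 and 1.87 without doxycycline replicate 2. Without control replicates 1 and 2 it was 1.00 and 0.13. Control replicate 1 held 2.39 times the FPKM of control replicate 2. On the log2(FPKM + 1) scale replicate 2 minus replicate 1 was -0.87. A gap at least as large in either direction was seen for 198 genes (1.65%). Doxycycline replicate 1 held 11.2 times the FPKM of doxycycline replicate 2. On the log2(FPKM + 1) scale this difference was -2.61, and 45 genes (0.374%) had a gap at least as large in either direction. MT1X shares 321 exon bases with AC026461.1 on the same strand, a gene at 0 FPKM in every library. The handling of reads that lie on both genes was not given in the sources used here. MT1X could therefore have lost reads over the shared bases.

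MT2A and MT1X each overlapped between groups, while their proportion within a library did not. MT1X made up 1.60% of the reads of both genes in control replicate 1 (exact 95% interval 1.30% to 1.94%) and 1.31% in control replicate 2 (0.962% to 1.75%). It made up 6.43% in doxycycline replicate 1 (5.82% to 7.09%) and 4.67% in doxycycline replicate 2 (3.24% to 6.50%). Both doxycycline libraries therefore lay above both controls. The intervals cover counting within each library and not the spread between libraries. This proportion is the same under any scaling of a library, and it was examined after the values had been seen.

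The mean proportion of MT1X was 1.46% ± 0.20 in the controls and 5.55% ± 1.24 with doxycycline (SD, n = 2 each), a ratio of 3.82. The ratio was 3.21 and 4.42 without doxycycline replicates 1 and 2, and 4.23 and 3.47 without control replicates 1 and 2. The exact two-sided permutation p was 0.333, the smallest that 2 against 2 libraries can give. Of the 12028 other genes tested, 11.3% also had a ratio to MT2A that was higher in both doxycycline libraries, and 0.673% were separated by at least as wide a margin as MT1X, a count that includes MT1X itself. The handling of reads that match several near-identical metallothionein copies was not given in the sources used here, so the split between MT2A and MT1X is uncertain to that extent.

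**Figure D3:**
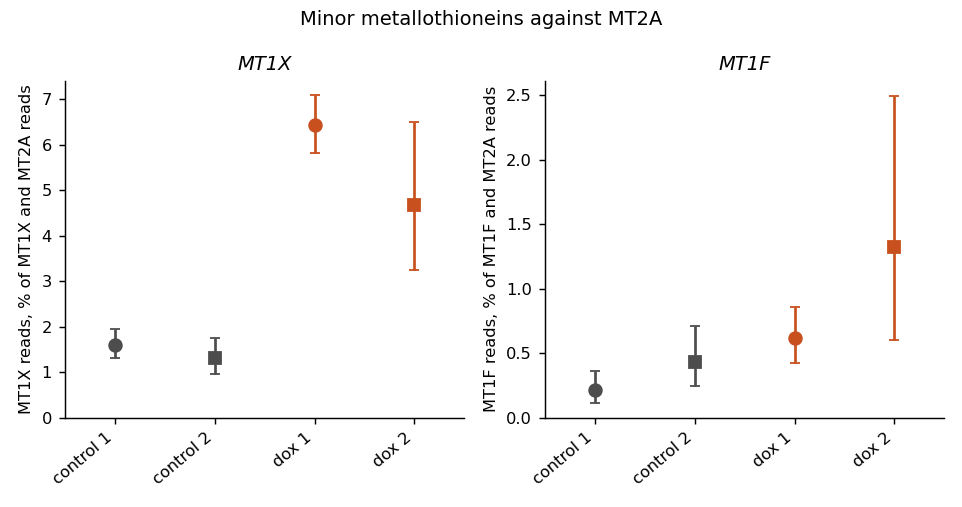
Reads of MT1X (left) and MT1F (right) as a percentage of their own and MT2A reads in each library, with exact 95% binomial intervals for counting error. Grey is control and orange is doxycycline. The MT1X intervals of the controls end at 1.94% and those of the doxycycline libraries begin at 3.24%, while the MT1F intervals of control replicate 2 and doxycycline replicate 1 overlap.

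MT1F (ENSG00000198417, chromosome 16, 56657694 to 56660698, plus strand) was low and was not tested in the main comparison. It stood at 0.43 and 0.46 FPKM in untreated cells, from 13 and 15 reads, and at 0.96 and 0.26 FPKM in doxycycline replicates 1 and 2, from 34 and 9 reads. Doxycycline replicate 1 was the highest and doxycycline replicate 2 the lowest, as for MT1X. Between the controls, where MT2A and MT1X parted, the ratio of replicate 2 to replicate 1 was 1.05 for MT1F, with an exact 95% interval from 0.467 to 2.40 that still includes the MT2A ratio of 0.512. MT1F made up 0.211% and 0.432% of its own and MT2A reads in the controls, and 0.615% and 1.32% in doxycycline replicates 1 and 2. The mean proportion was 0.321% ± 0.156 and 0.967% ± 0.498 (SD, n = 2 each, exact permutation p = 0.333, the smallest possible).

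MT1E, MT1G and MT1M, further members of the same cluster, had 0 reads in all 4 libraries. A count of 0 allows up to 3 reads, which is 0.180 FPKM for MT1E, 0.252 FPKM for MT1G and 0.201 FPKM for MT1M in control replicate 1, the shallowest library. These limits hold for reads that the counting assigned to a gene. If reads matching several copies were dropped or given to another copy, they set no limit on the transcript. Of 14 other metallothionein genes and pseudogenes, none reached a mean of 1 FPKM and 9 were at 0 in every library. The most reads in any of these was 6, for the pseudogene MT1XP1 in control replicate 2. MT3, the brain metallothionein, had 1 read in all, and MT1A had 3 reads, all in control replicate 1.

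Summed over the 6 metallothionein members, FPKM was 303 and 155 in the controls and 237 and 29.6 with doxycycline. MT2A made up 98.7% of the sum in each control, 94.8% in doxycycline replicate 1 and 95.7% in doxycycline replicate 2. Reads assigned to another of these 6 copies stay in the sum, while reads dropped or assigned elsewhere do not, and how many there were was not tested. Its means were 229 ± 105 and 133 ± 147 FPKM (SD, n = 2 each), a ratio of 0.583, and the ratio was 1.04 without doxycycline replicate 2 and 0.129 without doxycycline replicate 1.

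MTF1 is the regulator that senses zinc and drives the metallothionein genes, and it was higher in both doxycycline libraries. It lies on chromosome 1 (ENSG00000188786, GRCh38, 37809567 to 37859620, minus strand). It stood at 3.28 and 3.48 FPKM in untreated cells and at 5.71 and 5.16 FPKM in doxycycline replicates 1 and 2, from 417, 486, 862 and 758 reads. The lowest doxycycline value was 1.48 times the highest control value, and the libraries of each group were close together. The means were 3.38 ± 0.14 and 5.44 ± 0.39 FPKM (SD, n = 2 each), a ratio of 1.61.

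MTF1 had a log2 difference of 0.56 (standard error 0.17), which did not pass over all genes (limma unadjusted p = 0.0183, adjusted p = 0.189). The log2 difference was 0.49 and 0.62 without doxycycline replicates 1 and 2, and 0.52 and 0.59 without control replicates 1 and 2. Over all genes tested, 24.3% had both doxycycline libraries above both controls, so this separation alone does not set MTF1 apart. The RNA level of MTF1 was within 1.11-fold between the doxycycline libraries, while that of MT2A differed 7.96-fold. The activity of the MTF1 protein was not measured, and a link between these genes was not tested.

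SLC30A1 encodes ZnT1, the exporter of zinc across the plasma membrane and a known MTF1 target. It lies on chromosome 1 (ENSG00000170385, GRCh38, minus strand). It stood at 16.1 and 15.3 FPKM in untreated cells and at 20.2 and 23.2 FPKM in doxycycline replicates 1 and 2, from 1398, 1461, 2083 and 2325 reads. Both doxycycline libraries lay above both controls, as for MTF1 and for 24.3% of all genes tested. The means were 15.7 ± 0.55 and 21.7 ± 2.09 FPKM (SD, n = 2 each), a ratio of 1.38, with a log2 difference of 0.44 and a standard error of 0.19 (limma unadjusted p = 0.0625, adjusted p = 0.293). SLC30A1 was highest in doxycycline replicate 2, the library in which MT2A was lowest.

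SLC39A10 encodes ZIP10, a plasma membrane zinc importer. It lies on chromosome 2 (ENSG00000196950, GRCh38, 195575977 to 195737702, plus strand). It stood at 10.9 and 12.3 FPKM in untreated cells, 6.55 FPKM in doxycycline replicate 1 and 15.1 FPKM in doxycycline replicate 2, from 1200, 1482, 852 and 1908 reads. The doxycycline libraries lay on either side of the controls, in the opposite order to MT2A and MT1X. The log2 difference was -0.19 (standard error 0.36, limma adjusted p = 0.802). It was 0.35 without doxycycline replicate 1 and -0.74 without doxycycline replicate 2. Between the doxycycline libraries the ratio of replicate 2 to replicate 1 was 2.30 (exact 95% interval 2.12 to 2.50, counting error only). On the log2(FPKM + 1) scale this gap was 1.09, which 5.47% of genes reached or passed in either direction.

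SLC39A14 encodes ZIP14, which imports zinc and also iron and manganese. It lies on chromosome 8 (ENSG00000104635, GRCh38, 22367249 to 22434129, plus strand). It stood at 22.7 and 22.1 FPKM in untreated cells and at 23.5 and 22.6 FPKM in doxycycline replicates 1 and 2, from 2500, 2666, 3067 and 2871 reads. The 4 values lay within 1.07-fold of each other, the narrowest range of the 6 members tested, and the groups overlapped. The means were 22.4 ± 0.46 and 23.0 ± 0.65 FPKM (SD, n = 2 each), with a log2 difference of 0.04 and a standard error of 0.19 (limma adjusted p = 0.928).

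Over the 6 members tested, 2 had both doxycycline libraries above both controls, none had both below, and 4 overlapped. The same counts over all genes tested were 24.3%, 28.9% and 46.8%. Ordered by mean FPKM over the 4 libraries, MT2A was highest, followed by SLC39A14, SLC30A1, SLC39A10, MTF1 and MT1X. SLC39A14 and SLC30A1 overlapped in their ranges over the libraries, and MT1X overlapped with MTF1 and with SLC39A10. FPKM is per base of the gene length in the tables, which can exceed that of the transcript. The tables give MT2A a length of 1299 bases and MT1X 1773 bases, against 786 and 450 bases for the principal transcripts in GENCODE 29.

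Of 9 other SLC30 exporters, 4 met the minimum level, and of 12 other SLC39 importers, 8 did. None of these 12 genes passed over all genes, and at an unadjusted p under 0.05 1 importer was higher and 1 exporter lower (limma), against 6.47% of all genes higher and 11.9% lower. The median log2 difference was 0.26 for the 4 exporters and -0.09 for the 8 importers, against -0.03 over all genes tested.

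SLC30A9, linked to zinc export from mitochondria, was lower in both doxycycline libraries, as were 28.9% of all genes tested. It stood at 14.4 and 12.9 FPKM in untreated cells and at 4.61 and 8.35 FPKM in doxycycline replicates 1 and 2, with a log2 difference of -1.01 and a standard error of 0.28 (limma adjusted p = 0.158). This was the farthest below the controls of the exporters tested. SLC30A6 and SLC30A7, which load zinc into the early secretory pathway, were both higher in both doxycycline libraries, as were 24.3% of all genes tested. Their log2 differences were 0.27 and 0.33 (limma adjusted p = 0.513 and 0.361). SLC30A6 stood at 10.4 and 9.78 FPKM in untreated cells and at 10.7 and 14.2 FPKM in doxycycline replicates 1 and 2. Doxycycline replicate 1 thus lay only just above control replicate 1 for SLC30A6. SLC30A7 stood at 6.64 and 7.09 FPKM in untreated cells and 8.53 and 9.30 FPKM after doxycycline.

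SLC39A6, the importer known as LIV-1 and a close relative of SLC39A10, was higher in both doxycycline libraries, as were 24.3% of all genes tested. It stood at 31.9 and 30.8 FPKM in untreated cells and at 43.7 and 46.3 FPKM after doxycycline, with a log2 difference of 0.51 and a standard error of 0.20 (limma adjusted p = 0.259). SLC39A8, an importer of zinc, manganese and cadmium, was at 36.8 and 41.5 FPKM in untreated cells, 17.3 FPKM in doxycycline replicate 1 and 35.1 FPKM in doxycycline replicate 2 (limma adjusted p = 0.374). Like SLC39A10, it was lowest in doxycycline replicate 1, but both its doxycycline values lay below both controls, as for 28.9% of all genes tested. SLC39A4, the importer for dietary zinc in the gut, was at 10.3 and 6.91 FPKM in untreated cells and 7.37 and 3.07 FPKM after doxycycline (limma adjusted p = 0.372), in the same order of libraries as MT2A.

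**Figure D4:**
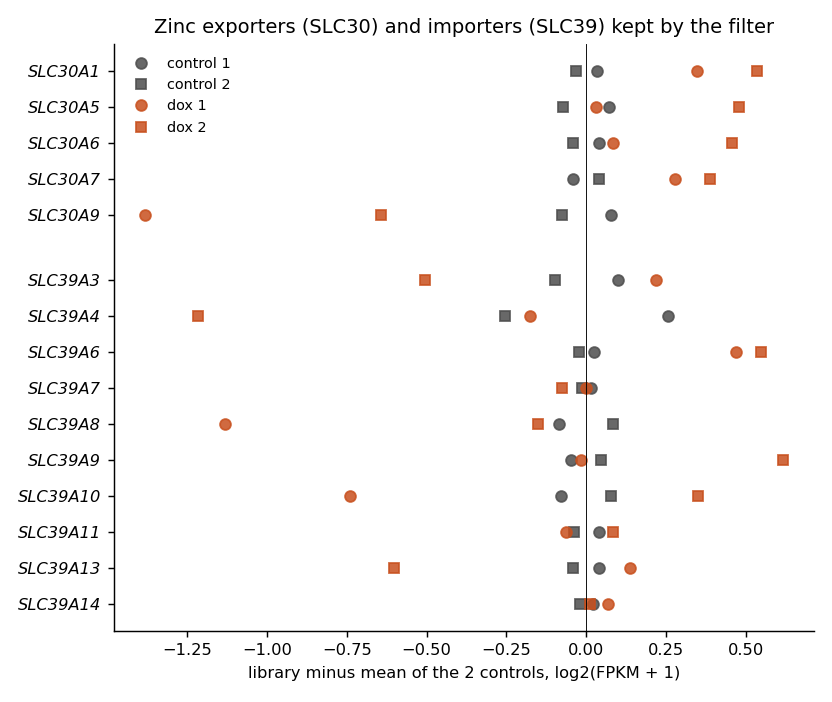
Difference of each library from the mean of the 2 controls in log2(FPKM + 1), for the 5 SLC30 and 10 SLC39 genes tested. Grey is control, orange is doxycycline, circles are replicate 1 and squares are replicate 2. SLC30A9 and SLC39A8 lie below the controls in both doxycycline libraries. SLC30A1, SLC30A6, SLC30A7 and SLC39A6 lie above in both, and SLC39A10 has 1 doxycycline library on each side.

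Of 12 genes of copper handling, whose metal also binds metallothioneins, 10 met the minimum and none passed over all genes or at an unadjusted p under 0.05 (limma). Their median log2 difference was -0.02. The genes with the lowest p were ATP7B, a copper-exporting ATPase, at 1.46 and 2.18 FPKM in untreated cells and 2.15 and 3.03 FPKM after doxycycline, ATOX1, a copper chaperone, and SOD1, the copper and zinc superoxide dismutase. SOD1 stood at 156 and 123 FPKM in untreated cells and at 116 and 113 FPKM after doxycycline, with control replicate 1 highest, as for MT2A.

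The genes whose profile over the 4 libraries lay nearest to that of MT2A were sought among 6931 genes averaging 5 FPKM or more, by Euclidean distance of centred log2(FPKM + 1) values. They included KRT80, CCDC85B, MIR4479 and ATF3, at distances of 0.660 to 0.849. KRT80, a keratin, stood at 92.2 and 86.4 FPKM in untreated cells and at 96.9 and 14.1 FPKM in doxycycline replicates 1 and 2. It shares the low value in doxycycline replicate 2, but not the gap of MT2A between the controls. CCDC85B stood at 62.7 and 44.1 FPKM in untreated cells and at 47.2 and 10.7 FPKM in doxycycline replicates 1 and 2. These values had the same order over the libraries as those of MT2A. MIR4479, a microRNA gene, was at 0 FPKM in doxycycline replicate 2, so its distance rests on a value at the floor.

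For SLC39A10 the nearest genes were COBLL1, CARMIL1, HOGA1, MT-ND4 and GRB7, at distances of 0.0834 to 0.163. COBLL1 stood at 7.51 and 8.19 FPKM in untreated cells and at 4.35 and 9.64 FPKM in doxycycline replicates 1 and 2, so that it too had 1 doxycycline library on each side of the controls. MT-ND4, a mitochondrially encoded respiratory chain subunit, had the same order, at 6791, 6823, 3829 and 7859 FPKM. With 4 libraries, a near profile says only that the values were ordered and spaced alike.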

How the data were processed

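The authors deposited 1 table per library with 58735 genes in FPKM, per the file headers. The submitters' processing notes list 3 tools without their roles, namely limma, featureCounts 1.5.0-p3 and HISAT2 2.0.5. The genome build is not given in the sources used here, nor are strandedness, filters and library scaling. All 58735 gene identifiers, starts, ends and strands were identical to GENCODE release 29 (GRCh38). FPKM times gene length was divided by a value for 1 read that was fitted in each library. The result came within 0.02 of a whole number for 100.0% of genes, which gave read numbers and depth.

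The 12029 genes averaging 1 FPKM or more were tested on log2(FPKM + 1) by limma-trend (limma 3.58.1, R 4.3.3), as a two-sided test without covariates on 2 residual degrees of freedom, at a Benjamini-Hochberg adjusted p under 0.05. Fold changes on this scale understate low genes. The test was run on simulated data first. The spread between simulated libraries was fixed and not taken from these libraries, so that run lends no support to the results here. Intervals came from scipy 1.17.1 under Python 3.11.15.

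The members and lists were chosen with earlier results of these data known. Genes named are the members, USP35, the 3 genes of each further list with the lowest p, and the 5 nearest profiles, of which 1 is not reported here. Others were chosen after their values were seen. Alternatives covered pseudocount, filter, scaling, limma-voom, the replicate block and each library left out.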

Additional observations from a re-analysis of the deposited data

How the results depend on the processing

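Of 82 member results recomputed over the alternatives, 3 turned direction, all on leaving out a doxycycline library. With a library left out, the log2 difference ranged from -2.87 to 0.074 for MT2A (reversed without doxycycline replicate 2), from -0.74 to 1.87 for MT1X and from -0.74 to 0.35 for SLC39A10 (both reversed without doxycycline replicate 1). Members past the threshold numbered 0 under every alternative that kept all 4 libraries. The count over all genes was 261 with a mean of at least 5 FPKM, 121 with limma-voom on median-of-ratios sizes, 784 with the replicate block, and 0 to 3942 with a library left out. Replicate numbers are shared only by name. Deviations of same-numbered libraries correlated across genes with r = 0.207, and with the replicate block the adjusted p of MT2A was 0.0577. The summed metallothionein ratio ranged from 0.129 to 1.04 with a library left out, and the MT2A ratio between the controls was 0.596 under quantile normalization, an alternative chosen after seeing the data. Fits that kept 1 library in a group took their spread from the other group alone. For the members, only the log2 differences of these fits are therefore given, without p-values or calls. The counts of these fits over all genes, given above as a range, cannot be read as evidence of a difference for the same reason. Between the doxycycline libraries 22.5% of genes differed by at least 1.5-fold on FPKM + 1, against 4.05% between the controls. With 33 to 378 reads, depth limits MT1X, and more so MT1F.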
